A study of Mus musculus with 8 samples.

Results

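The genes described here encode the standard proteasome and the proteins that cap, activate, inhibit or assemble it. They were taken by name, as the protein coding genes of the deposited expression table whose symbols start with Psma to Psmg followed by a number, without the interferon-inducible subunits Psmb8, Psmb9 and Psmb10. This gave 48 genes of the 22962 in the table, 17060 of them protein coding. The libraries came from wild-type mouse gonadal fat. Cells of its stromal vascular fraction, the progenitor, immune and vascular cells left once floating fat cells are removed, had been turned into adipocytes in culture. On day 6 they received either the solvent DMSO (4 libraries) or DoxSa (4 libraries), a name the labels do not spell out, in a series whose title concerns 1-deoxysphingolipids. Separate cultures or animals are not mentioned for the libraries of a group, so a p-value here reflects the spread between these libraries, which may be technical. No age, dose or length of exposure is given there.

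The proteasome is the main protease of the cytosol and nucleus. Its core particle is a barrel of stacked rings, in which alpha subunits (Psma genes) form the gates and beta subunits (Psmb genes) the chamber, with the cutting sites in Psmb5, Psmb6 and Psmb7. The regulatory particle binds ubiquitin-tagged proteins, removes the tags and unfolds the chain with a ring of ATPases (Psmc genes), while Psmd genes encode the rest of its base and its lid. When proteasomes are inhibited, the transcription factor NRF1 (Nfe2l1) raises the subunit genes together through antioxidant response elements, and its relative NRF2 (Nfe2l2) uses similar elements. In fat cells, NRF1 is known for its part in brown fat, where it adjusts proteasome activity to cold.

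None of the standard proteasome genes changed in DoxSa by the test used. On FPKM, reads scaled to gene length and to the assigned reads of the library, limma was run on log2(FPKM + 1) over the 12060 genes whose mean reached 0.5 FPKM. Of the 48 members 46 could be tested, and with a cutoff of 0.05 on the p-value adjusted after Benjamini and Hochberg, 0 were called higher and 0 lower (4 libraries per group), where 5.90% of all tested genes were called, 3.88% higher and 2.02% lower. At an unadjusted p under 0.05 there were 6 members, each of them higher, where all tested genes gave 19.8% in either direction and 12.6% higher. A voom fit of reads recovered from the FPKM steps also called 0 members, with 7.30% of all genes called. The median log2 difference of the members, DoxSa minus DMSO, was 0.032, beside 0.012 for all tested genes. The difference was positive for 41 of 46 members, beside 56.7% of all tested genes in the same fit. After median-of-ratios scaling it was positive for 34 members. The medians were then 0.0159 for the members and -0.00165 for all tested genes. Without DoxSa 1 it was positive for 29 members, with medians of 0.016 and 0.00877.

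The intervals bound what these libraries allow. For the 31 tested subunits of the standard core and regulatory particles, the 95% intervals of the fold change on the log2(FPKM + 1) scale lay between 0.924 and 1.14. The members were well covered, with 57 to 12686 recovered reads per gene and library. Their coefficient of variation had a median of 3.57% in DMSO and 4.44% in DoxSa, where counting error alone would give a median of 1.56%. In reads simulated for the same 12060 genes and comparison, 8% of genes changed 1.1-fold and 58% of those changed 1.2-fold were called. The changed genes were drawn from all levels and each gene was given the same spread beyond counting error. The other 11860 genes were left unchanged, and 11 of these were called. In the data 712 genes were called, so the same adjusted cutoff does not stand for the same unadjusted p. These rates are therefore not those of the members, and a shift as small as the median difference seen here was not simulated.

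**Figure D1:**
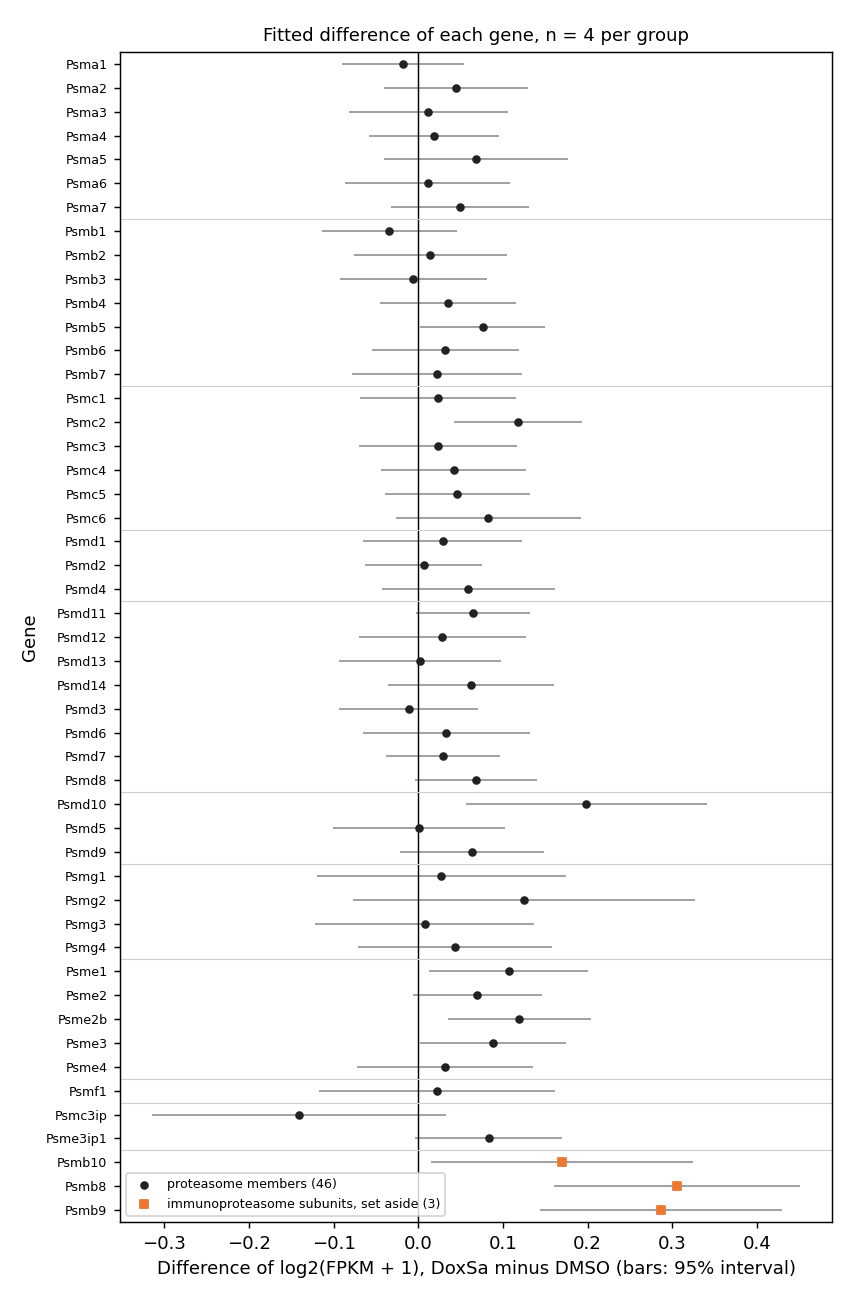
Fitted difference of log2(FPKM + 1), DoxSa minus DMSO, for each of the 46 tested members (dots) and the 3 inducible subunits set aside (squares), with 95% intervals as bars. Most member intervals cross 0, Psmd10 lies farthest to the right among members at 0.198, and Psmb8 and Psmb9 lie beyond it.

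The 8 libraries spanned 39213008 to 41365861 recovered reads, and replicate libraries differed by more than sampling noise in every pair (lowest chi-square per degree of freedom, 5.67). The labelled cell type was checked on 10 adipocyte markers. Their summed FPKM lay between 11596 and 11999 in DMSO and between 11608 and 12357 in DoxSa, with Retn called lower. Fabp4 alone averaged 8775 FPKM, so the sums mostly follow that gene. Of the 10 markers 2 had a positive difference, beside 56.7% of all tested genes. Their median log2 difference was -0.053, beside 0.012 for all tested genes. Macrophage markers were also abundant, with sums over 10 genes of 6779 to 7779 in DMSO and 7551 to 8064 in DoxSa, and Fcgr1 was called higher. Of 9 tested preadipocyte and fibroblast markers 1, Pdgfrb, was called lower (-0.23 ± 0.036, adjusted p = 0.00383, groups apart) and 0 higher. The sums over the 10 markers of that list were 3343 to 3701 FPKM in DMSO and 3302 to 3723 in DoxSa. Of 5 tested smooth muscle and pericyte markers 4 were called lower, Acta2, Cnn1, Myh11 and Tagln. Of 5 mesothelial markers only Krt19 reached the expression minimum (mean 15.2 FPKM; -0.24 ± 0.080, adjusted p = 0.113), and the other 4 averaged at most 0.422 FPKM. Endothelial markers summed to at most 2.09 FPKM. Of T and B cell markers 0 reached the expression minimum. In bulk RNA of such a mixture, a change in the number of cells of a type and a change of RNA per cell cannot be told apart.

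Levels differed by place in the complex, as the plot of levels by gene shows. The 14 tested core genes had a median of 137 FPKM over the 8 libraries, and the 21 genes of the Psmc and Psmd series a median of 58.7 FPKM. The gene with the highest level was Psmd8, a lid subunit, with 163, 162, 165 and 160 FPKM in DMSO 1 to 4 and 177, 173, 165 and 167 FPKM in DoxSa 1 to 4. DoxSa 3 lay within the DMSO values. In the alpha ring, Psma2, Psma1 and Psma6 stood at mean levels of 157, 154 and 145 FPKM, and Psma4, Psma7, Psma5 and Psma3 at 109, 80.2, 70.1 and 29.9 FPKM. The low FPKM of Psma3 went with a long gene model: the length recovered from its values was 3325 bases, against 946 to 1591 bases for the other alpha genes. In reads it held 3761 to 4285 per library, more than the 3165 of Psma5 in its lowest library. The 7 beta genes were closer to each other, between 105 FPKM for Psmb6 and 157 FPKM for Psmb4.

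**Figure D2:**
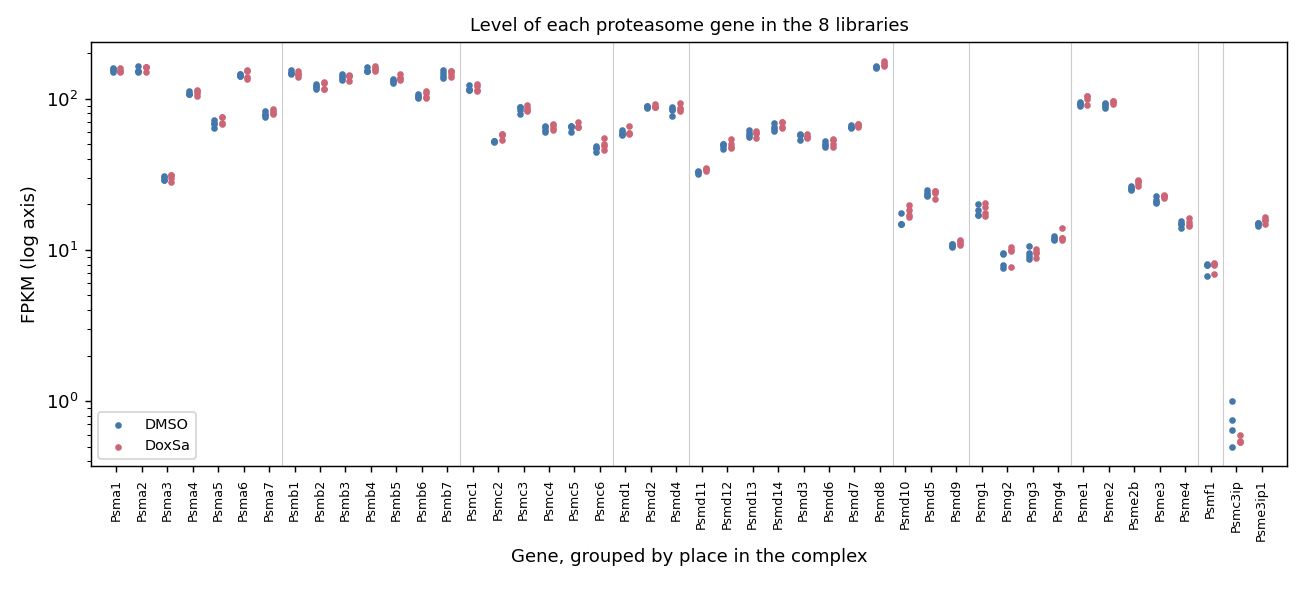
FPKM (log axis) of the 46 tested members in each library, with DMSO points on the left and DoxSa points on the right of each gene, grouped by place in the complex. The beta ring lies between 105 and 157 FPKM on average, the assembly chaperones Psmg1 to Psmg4 between 9.05 and 18.3 FPKM, and the 2 groups lie on top of each other for most genes.

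The Psma8 and Psmb11 genes did not reach the minimum and were not tested. Psma8, an alpha subunit of testis, lay between 0.101 and 0.262 FPKM over the 8 libraries. Psmb11, a beta subunit of the thymus, was listed at 0 in 7 of the libraries and at 0.00576 FPKM in DMSO 1. Among the tested members, the lowest level was that of Psmc3ip, which shares the name but encodes a partner protein of meiotic recombination. It measured 0.994, 0.754, 0.639 and 0.496 FPKM in DMSO and 0.534, 0.592, 0.540 and 0.543 FPKM in DoxSa, with 57 to 114 recovered reads. DMSO 1 to 3 were above each DoxSa library and DMSO 4 below them. Its log2 difference, -0.14 ± 0.079 (SE, adjusted p = 0.363), was the most negative of the members. It was -0.067 without DMSO 1, -0.297 with a pseudocount of 0.1 and -0.36 by voom on recovered reads.

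The cutting subunits of the core did not pass the test. Psmb5, which carries the chymotrypsin-like site, measured 134, 131, 131 and 128 FPKM in DMSO 1 to 4 and 145, 138, 133 and 136 FPKM in DoxSa 1 to 4. DoxSa 3 fell inside the DMSO range and the other DoxSa libraries above it. The log2 difference of 0.076 ± 0.034 had the largest size of the 14 core genes (95% interval 0.0019 to 0.15, adjusted p = 0.240). Psmb6, with the caspase-like site, measured 103, 104, 107 and 100.3 FPKM in DMSO and 112, 109, 102 and 102 FPKM in DoxSa, a difference of 0.032 ± 0.040 (adjusted p = 0.729). Psmb7, with the trypsin-like site, measured 140.2, 137, 155 and 148 FPKM in DMSO and 153, 152, 139 and 145 FPKM in DoxSa, a difference of 0.022 ± 0.046 (adjusted p = 0.855). For both genes the ranges of the groups overlapped.

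The other 11 tested core genes had log2 differences between -0.035 and 0.069. Psmb1, a non-catalytic beta subunit, measured 148, 147, 155 and 146 FPKM in DMSO and 152, 146, 146 and 139 FPKM in DoxSa, with the most negative difference of the core (-0.035 ± 0.036, adjusted p = 0.669). Psma1, an alpha subunit, followed on the negative side with 151, 155, 159.6 and 156 FPKM in DMSO and 159.7, 152, 149.6 and 153 FPKM in DoxSa (-0.018 ± 0.033, adjusted p = 0.824). Psmb3 was the remaining core gene below 0, at -0.0059. The groups overlapped in each of the 14 core genes, where 12.5% of all tested genes had groups that did not overlap.

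In the regulatory particle the member with the smallest p was Psmc2, one of the 6 ATPases. It measured 52.2, 52.0, 52.9 and 52.3 FPKM in DMSO 1 to 4 and 58.3, 57.5, 58.2 and 53.6 FPKM in DoxSa 1 to 4. The DMSO libraries were within 1 FPKM of each other, and each DoxSa library was higher, DoxSa 4 by the least. The log2 difference was 0.12 ± 0.034 (adjusted p = 0.0740), and without DoxSa 4 it was 0.146 and passed the test (adjusted p = 0.0323). Psmc2 did not pass in any other of the alternative fits described below, where its adjusted p reached 0.186. The other 5 ATPases lay between 0.023 and 0.083. Psmd11, a lid subunit, measured 33.1, 31.9, 32.6 and 32.7 FPKM in DMSO and 34.4, 34.6, 33.2 and 34.4 FPKM in DoxSa, a difference of 0.064 ± 0.031 (adjusted p = 0.273). Psmc2 and Psmd11 were the 2 of 46 members whose groups did not overlap, both with DoxSa higher, beside 12.5% of all tested genes that did not overlap in either direction, 7.80% with DoxSa higher and 4.71% with DoxSa lower.

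Of the remaining subunits of the base, Psmd1, Psmd2 and Psmd4, which hold ubiquitin or its carriers, differed by 0.029, 0.0064 and 0.059. Psmd14, the lid enzyme that cuts ubiquitin from substrates, averaged 64.6 ± 3.26 FPKM in the DMSO libraries and 67.5 ± 3.20 in the DoxSa libraries (SD, n = 4), differing by 0.062. The 8 lid genes had a median difference of 0.031, with Psmd3 on the negative side at -0.012. Psmd8, given above, differed by 0.068 ± 0.033 (adjusted p = 0.278).

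Core and regulatory particle genes differed in their response by less than the SD between DMSO libraries and more than that between DoxSa libraries. This difference was not tested. The median log2 difference was 0.0202 over the 14 core genes and 0.033 over the 21 regulatory genes, and it was 0.033 for the latter also when Psmc3ip and the chaperones Psmd5, Psmd9 and Psmd10 were left aside. The mean log2 level of the core minus that of the 21 regulatory genes was 1.27, 1.26, 1.33 and 1.31 in DMSO 1 to 4. In DoxSa 1 to 4 it was 1.28, 1.29, 1.26 and 1.28, inside the DMSO range. The group means were 1.29 ± 0.033 and 1.28 ± 0.0103 (SD, n = 4). Their difference of -0.016 was smaller in size than the SD in DMSO and larger than that in DoxSa. Without Psmc3ip and the chaperones the means were lower, 0.756 ± 0.031 in DMSO and 0.738 ± 0.016 in DoxSa. The difference was then -0.018, in size again between the SD in DoxSa and that in DMSO.

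Larger than the treatment groups' difference was that between libraries of 1 group. Relative to each gene's mean over the 8 libraries, the 46 members stood on average at -0.021, -0.0098, -0.00054 and -0.050 in DMSO 1 to 4. They stood at 0.075, 0.053, -0.032 and -0.0151 in DoxSa 1 to 4. DoxSa 1 and 2 thus lay above each DMSO library, while DoxSa 3 and 4 lay among them. DoxSa 1 was the highest of the 8 libraries for 25 of the 46 members and DMSO 4 the lowest for 17. Over all tested genes DoxSa 1 was the highest for 19.5% and DMSO 4 the lowest for 25.0%. The same libraries also stood apart over all tested genes, with mean deviations of -0.037 in DMSO 4 and 0.022 in DoxSa 1, and the part of this in the members' values was not tested. The members' median difference was 0.016 without DoxSa 1 and 0.023 without DoxSa 2, and 0.053 and 0.051 without DoxSa 3 and DoxSa 4.

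**Figure D3:**
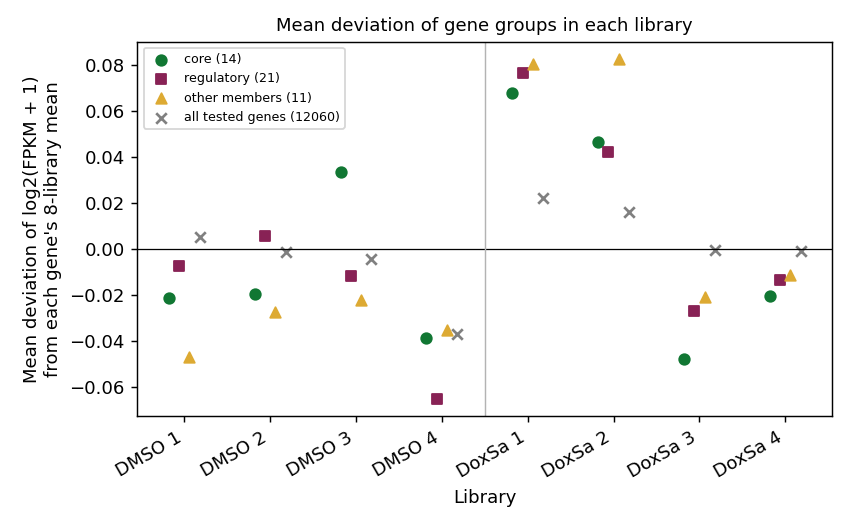
Mean deviation of log2(FPKM + 1) from each gene's 8-library mean, per library, for 14 core genes, 21 regulatory genes, the 11 other members and all 12060 tested genes. The 3 member groups lie highest in DoxSa 1 and DoxSa 2, and in DoxSa 3 and DoxSa 4 they lie below 0 like most DMSO points.

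**Figure D4:**
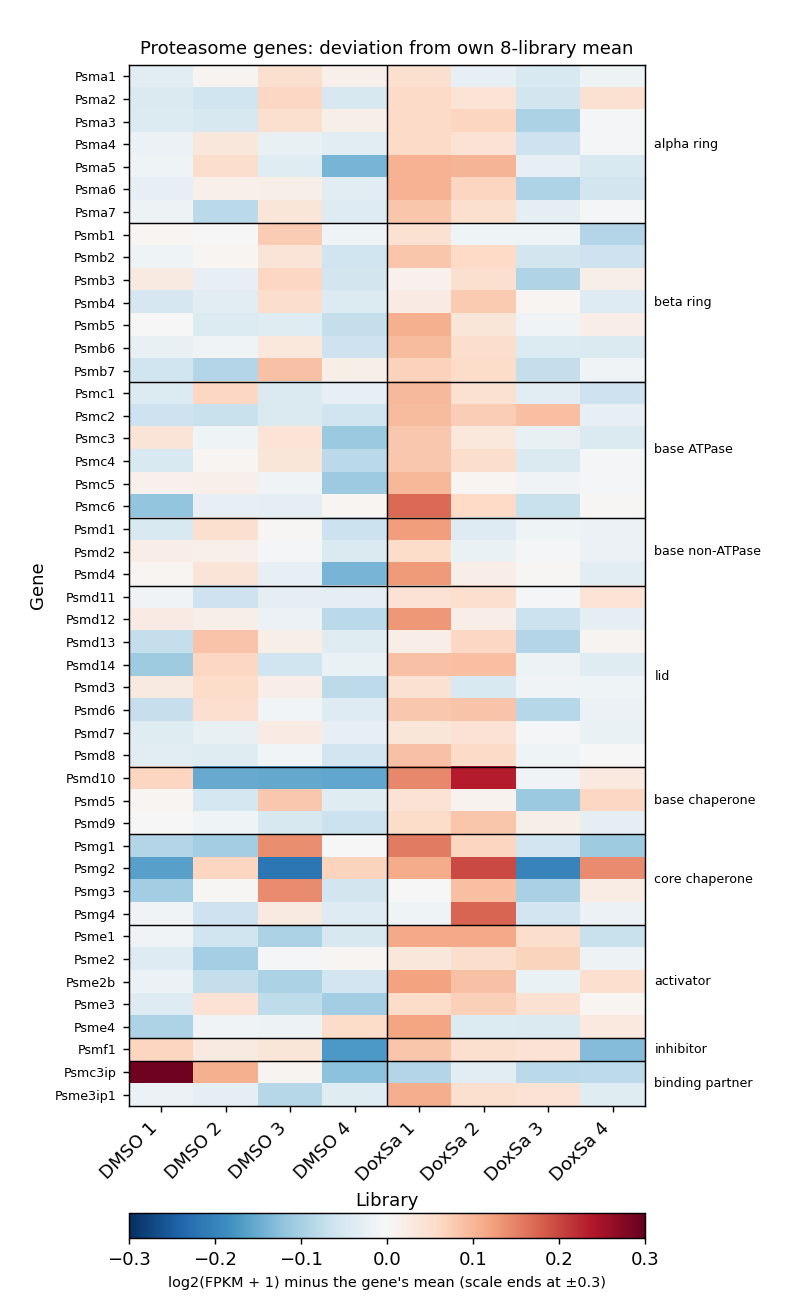
Deviation of log2(FPKM + 1) of each tested member (rows, by place in the complex) from its own mean, in the 8 libraries (columns), with the color scale ending at 0.3 in each direction. The column of DoxSa 1 is red for 43 of 46 genes and that of DMSO 4 blue for 39, while the chaperones Psmd10 and Psmg2 show the strongest colors besides Psmc3ip.

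Assembly factors spread more between libraries, with a median within-group SD of 0.104 on the log2 scale for Psmg1 to Psmg4, beside 0.061 for all tested members. They also held fewer reads, 252 to 882 per gene and library. Counting error alone would give them a median coefficient of variation of 4.98%, beside 1.56% for all tested members. Psmd10, or gankyrin, a chaperone of the base, measured 17.4, 14.9, 14.8 and 14.8 FPKM in DMSO 1 to 4 and 18.4, 19.7, 16.5 and 17.0 FPKM in DoxSa 1 to 4. DMSO 1 lay above DoxSa 3 and DoxSa 4, and the other 3 DMSO libraries lay below each DoxSa library. With 0.198 ± 0.065 it had the largest difference of the members (adjusted p = 0.110), and without DMSO 1 the difference was 0.253 and passed the test (adjusted p = 0.0309). No other alternative fit called Psmd10, and its adjusted p reached 0.269. The other base chaperones, Psmd9 and Psmd5, differed by 0.063 and 0.0011. Psmg2, which pairs with Psmg1 to start the alpha ring, measured 7.93, 9.45, 7.59 and 9.47 FPKM in DMSO and 9.79, 10.5, 7.698 and 10.02 FPKM in DoxSa, a difference of 0.12 ± 0.092 (adjusted p = 0.5096). For Psmg2, DMSO 1 and DMSO 3 lay below DMSO 2 and DMSO 4, and in DoxSa a single library, DoxSa 3, lay below the others. Psmg1, Psmg3 and Psmg4 differed by 0.027, 0.0075 and 0.043.

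The activators, which open the core without ATP, were above 0 in 5 of 5 genes, from 0.032 to 0.12, beside 56.7% of all tested genes. Of these 5 genes 0 passed the test, beside 5.90% of all tested genes. At an unadjusted limma p under 0.05 there were 3 of the 5, all higher, beside 12.6% of all tested genes. Psme1 and Psme2 encode the interferon-inducible cap PA28 alpha and beta. Psme1 measured 95.03, 91.9, 89.7 and 92.7 FPKM in DMSO and 104, 104, 99.4 and 91.5 FPKM in DoxSa, a difference of 0.107 ± 0.043 (adjusted p = 0.188). DoxSa 4 fell inside the DMSO range, and without it the difference was 0.147 (adjusted p = 0.0486). No other alternative fit called Psme1, and its adjusted p reached 0.376. Psme2 differed by 0.0697 ± 0.035. Psme2b, a copy of Psme2 that may share reads with it, measured 26.4, 25.4, 25.0 and 25.7 FPKM in DMSO and 29.2, 28.5, 26.4 and 27.7 FPKM in DoxSa, a difference of 0.12 ± 0.038 (adjusted p = 0.105). Psme3, the nuclear PA28 gamma, measured 21.4, 22.7, 20.8 and 20.4 FPKM in DMSO and 22.9, 23.1, 22.7 and 22.05 FPKM in DoxSa, with DMSO 2 above DoxSa 4 (0.089 ± 0.039, adjusted p = 0.2396). Psme4, or PA200, differed by 0.032, the inhibitor gene Psmf1 by 0.022 and Psme3ip1, which encodes a binding partner of PA28 gamma, by 0.083.

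Of the 3 inducible subunits that replace the cutting subunits, Psmb8 and Psmb9 were called higher in DoxSa and Psmb10 was not. Psmb8 measured 51.1, 40.5, 41.9 and 45.8 FPKM in DMSO and 55.6, 57.9, 57.1 and 51.4 FPKM in DoxSa (log2 difference 0.305 ± 0.066, adjusted p = 0.0212), and Psmb9 rose by 0.287 ± 0.065 (adjusted p = 0.0256). Psmb10 stood at 24.6, 19.6, 21.6 and 21.6 FPKM in DMSO and at 25.3, 26.5, 25.3 and 21.7 FPKM in DoxSa, with overlapping groups (0.17 ± 0.070, adjusted p = 0.206). Set against its standard counterpart, the FPKM ratio of Psmb8 to Psmb5 was 0.381, 0.3104, 0.3201 and 0.359 in DMSO and 0.384, 0.4203, 0.428 and 0.377 in DoxSa. DMSO 1 lay above DoxSa 4. For Psmb9 to Psmb6 the ratio was 0.195 ± 0.023 in DMSO and 0.233 ± 0.0075 in DoxSa (SD, n = 4). The groups were apart by a small margin, with DMSO 1 the highest of its group at 0.2264 and DoxSa 1 the lowest of its group at 0.2272. For Psmb10 to Psmb7 it was 0.151 ± 0.0165 and 0.168 ± 0.0140. Exact two-sided permutation tests of the log2 ratios, added after the values were seen, gave p = 0.0571, 0.0286 and 0.171 (n = 4 per group, adjusted p = 0.0857, 0.0857 and 0.171 over 3 ratios), where 0.0286 is the smallest the design allows. Of 10 tested macrophage markers 10 had a positive difference, their sums are given above, and their part in these ratios was not tested.

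**Figure D5:**
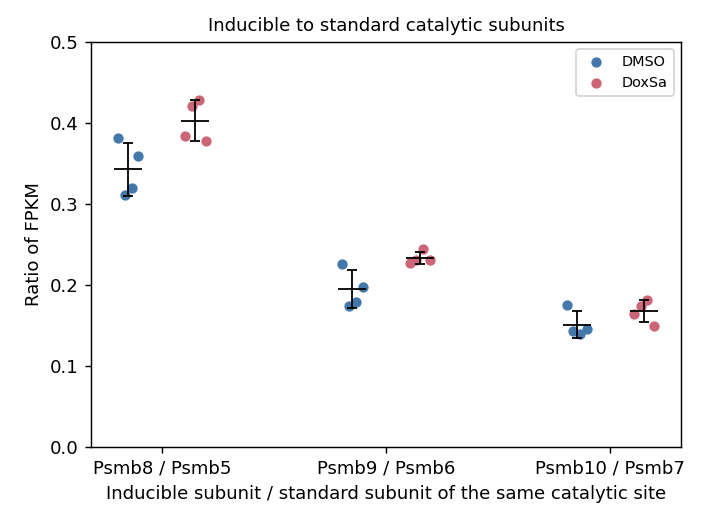
Ratio of the FPKM of the inducible to that of the standard subunit at each of the 3 cutting sites, per library, with the group mean and SD as bars. DMSO 1 is the highest DMSO point at each site, and the groups are apart for Psmb9 over Psmb6 alone, by a small margin.

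Antioxidant response elements are sites through which NRF1 and NRF2 are known to act, and the data hold both regulators. Their action on the promoters of the members was not tested. Nfe2l1 measured 79.3, 82.04, 78.5 and 85.04 FPKM in DMSO and 81.98, 79.4, 82.2 and 85.9 FPKM in DoxSa (0.0203 ± 0.037, adjusted p = 0.825). Nfe2l2 measured 39.8, 38.9, 40.6 and 39.6 FPKM in DMSO and 45.99, 47.03, 45.1 and 43.5 FPKM in DoxSa, with each DoxSa library above each DMSO library (0.188 ± 0.034, adjusted p = 0.00939). Promoter windows from 250 bases before to 50 after the gene start were available in RefSeq (GRCm38.p6) for 40 of the 48 members. They were missing for Psma8, Psmb1, Psmb2, Psmb7, Psmc3, Psmd3, Psmd7 and Psmg2. The element's core, TGACNNNGC on either strand, was found for 6 members, in 13.6% of 44 member windows, beside 14.6% of the windows of tested genes and 12.4% of all windows. The following stretches show the matches, with the core in capitals, and those of 3 NRF2 target genes that rose in DoxSa and were chosen with that known.
Psmb5: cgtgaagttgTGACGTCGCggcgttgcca
Psmb6: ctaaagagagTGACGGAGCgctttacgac
Psmc6: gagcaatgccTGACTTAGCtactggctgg
Psmd12: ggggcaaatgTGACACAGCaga
Psmd9: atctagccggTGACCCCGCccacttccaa
Psme4: gctcttctggTGACGCTGCagccgcagcg
Gclm: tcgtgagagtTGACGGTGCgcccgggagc
Srxn1: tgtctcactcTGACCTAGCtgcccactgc
Txnrd1: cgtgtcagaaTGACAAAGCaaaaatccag
The members matched at -43 (Psmb5), -5 (Psmb6), -223 (Psmc6), -243 (Psmd12), -27 (Psmd9) and -3 (Psme4) from the gene start, and the target genes at -130 (Gclm), -88 (Txnrd1) and 32 (Srxn1), counted to the middle of the core. The stretches lie, in the order shown, at chr14:54618024-54618052 (minus strand), chr11:70525338-70525366 (plus strand), chr14:45329587-45329615 (minus strand), chr11:107479278-107479299 (minus strand), chr5:123228149-123228177 (plus strand), chr11:30771758-30771786 (minus strand), chr3:122245413-122245441 (minus strand), chr2:152105542-152105570 (minus strand) and chr10:82859104-82859132 (minus strand) of GRCm38.p6. The 6 members with a match had log2 differences between 0.028 and 0.083 (median 0.048), and the 33 tested members with a window and no match had a median of 0.042. Gclm, the regulatory subunit of glutathione synthesis, differed by 0.26 ± 0.048 (adjusted p = 0.00979), Srxn1, sulfiredoxin, by 0.58 ± 0.056 and Txnrd1, thioredoxin reductase, by 0.64 ± 0.053. A match of these letters describes the window and does not show that a factor binds there. Of other motifs, CCAAT was in 34.1% of member windows and 37.9% of those of tested genes, GGGCGG in 54.5% and 62.5%, and TTGCATCA in 2.27% and 0.547%, the former being 1 window.

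Of 19 tested partners of the proteasome outside the named series 1 was called higher and 0 lower, with a median difference of 0.032. Among all tested genes 3.88% were called higher and 5.90% in either direction. At an unadjusted p under 0.05 there were 5 of the 19, all of them higher, against 12.6% of all tested genes. In 4 of the 19 the DoxSa libraries lay above each DMSO library, against 7.80% of all tested genes. Sem1, a small lid subunit, differed by 0.0102 ± 0.052, Adrm1, a ubiquitin receptor of the base, by 0.0116 ± 0.0497, and Pomp, which matures the core, by 0.0070 ± 0.036. Usp14, a deubiquitinase bound to the base, averaged 18.8 ± 0.659 FPKM in the DMSO libraries and 19.3 ± 0.965 in the DoxSa libraries (SD, n = 4; 0.036 ± 0.043, adjusted p = 0.714). The factor called was Nub1, an interferon-inducible protein that brings conjugates of the ubiquitin-like NEDD8 to the proteasome. It measured 26.4, 24.5, 25.1 and 25.8 FPKM in DMSO and 28.7, 29.4, 29.4 and 27.9 FPKM in DoxSa (0.17 ± 0.035, adjusted p = 0.0164), with the groups apart. The groups were also apart, without passing the adjusted test, for Zfand5 (0.14 ± 0.044, adjusted p = 0.0891), for Uchl5, a deubiquitinase of the regulatory particle (0.14 ± 0.050, adjusted p = 0.147), and for Ddi2 (0.12 ± 0.041, adjusted p = 0.128). Zfand2a differed by 0.17 ± 0.062 with overlapping groups (adjusted p = 0.151). These 4 genes are named after their values were seen. Of 15 regulators of proteasome genes, a list that also holds Ddi2, Nfe2l2 alone was called, and the median difference was 0.031. At an unadjusted p under 0.05 there were 3 of the 15, all higher, against 12.6% of all tested genes. The groups were apart with DoxSa higher in 3 of the 15, against 7.80% of all tested genes.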

How the data were processed

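Bulk RNA sequencing gave 8 libraries, assigned to DMSO or DoxSa and numbered by their titles. The submitters' processing notes name HISAT2 and HTSeq with the mouse build GRCm39. Versions, annotation, filters and the use of strand were not stated. The authors deposited FPKM values per gene, with no further scaling between libraries. Because FPKM of whole reads steps by the worth of 1 read, library totals, gene lengths and reads were recovered, within 0.001 of a whole number for 12060 of 12060 genes.

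The main test was limma 3.58.1 (R 4.3.3; lmFit, eBayes with an intensity trend) on log2(FPKM + 1), which understates changes of low genes, for genes whose mean reached 0.5 FPKM, without covariates. SE is the moderated standard error and adjusted p was computed by Benjamini-Hochberg across the tested genes. The test was checked on simulated data. Alternatives were another pseudocount (0.1), no filter or a minimum of 2 FPKM, 3 scalings, library weights, no trend, a replicate block, voom on recovered reads and leaving out each library. Other steps used Python 3.11.15, numpy 2.4.6, pandas 2.3.3 and matplotlib 3.10.9.

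The members and lists were chosen with earlier results of these data known. Named by rule were called members, Psmb5, Psmb6, Psmb7, the 3 largest and 3 smallest differences, the highest and lowest level, called list genes, and Nfe2l1, Nfe2l2, Adrm1, Sem1, Pomp and Usp14. The others were chosen after their values were seen. Genes with near-identical copies can share reads, and without a stated strand setting overlapping genes cannot be told apart.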

Additional observations from a re-analysis of the deposited data

Results flagged for a closer look

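In 92 groups of 4 libraries (46 members, 2 treatments), 10 held a library whose gap to its nearest neighbour took a share of the group's range above Dixon's 95% limit, where chance gives about 5%. Psmd10 stood out most, with DMSO 1 above the other DMSO libraries at a ratio of 0.981. DMSO 3 was high for Psma2 (0.871) and Psmb4 (0.8303), and DMSO 4 low for Psmf1 (0.838). Among DoxSa libraries, DoxSa 1 was high for Psmc5 (0.859) and Psmd1 (0.854) and DoxSa 2 for Psmc3ip (0.843). DoxSa 3 was low for Psma2 (0.8599) and Psmd11 (0.846), and DoxSa 4 for Psmc2 (0.8292, just above the limit).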

How the results depend on the processing

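Over 18 alternatives, the count of members called lower stayed at 0, and the count called higher was 0 except without single libraries, where it ranged from 0 to 2 (regulatory members 0 to 1): Psmd10 was called without DMSO 1, and Psmc2 and Psme1 without DoxSa 4. All genes called numbered 712, 266 with no filter on low values and between 386 and 692 without 1 library, the lowest without DoxSa 2 and 404 without DoxSa 1. Quantile normalization moved the share called higher from 65.7% to 54.9%. Core and regulatory medians kept their sign, between 0.0025 and 0.044 and between 0.0161 and 0.057. Of 14 members followed by name, Psmb7 changed sign, to -0.0042 without DMSO 2, in a range up to 0.054 over left-out libraries. The replicate numbers do not pair the libraries (correlation of same-numbered deviations -0.0989 to 0.0654), and the replicate block gave 624 called genes and 0 members. In the simulation with 4 libraries per group, 8% of genes changed 1.1-fold were called, over genes of all levels and not the members alone. It left 11860 genes unchanged.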

Other observations

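For the steps before the proteasome, counts are set beside all tested genes, of which 5.90% were called and whose median log2 difference was 0.012. Of 6 tested genes of ubiquitin and its activating enzymes limma called 0, with a median of 0.073 and 1 at an unadjusted p under 0.05. That gene was Ubb, a polyubiquitin gene (0.103 ± 0.044, adjusted p = 0.219). The activating enzyme gene Uba6 differed by 0.135 ± 0.066 (adjusted p = 0.287). Of 26 ubiquitin-conjugating enzyme genes 0 were called and 2 had an unadjusted p under 0.05, both higher, with a median of 0.022 and a range of -0.15 to 0.102. Of 17 tested genes of endoplasmic reticulum-associated degradation 1 was called higher and 0 lower, with a median of 0.032. That gene was Herpud1, a membrane protein of the degradation complex that the unfolded protein response induces. It measured 29.0, 27.9, 28.2 and 27.4 FPKM in DMSO and 30.6, 33.5, 32.2 and 32.02 FPKM in DoxSa, with the groups apart (0.18 ± 0.037, adjusted p = 0.0151).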
